A study of Mus musculus with 7 samples.

Results

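The serotonin synthesis and transport genes are 8 genes chosen by symbol: Tph1, Tph2, Ddc, Slc18a1, Slc18a2, Slc6a4, Maoa and Maob, out of 56941 genes counted in single nuclei of mouse lung tumors. Each symbol was found once in all 4 count tables. The tumors came from 4 male mice, 2 RP and 2 RPC. RP mice carried floxed Rb1 and Trp53 alleles (Rb1 fl/fl, Trp53 fl/fl) and developed tumors resembling small cell lung cancer (SCLC) after intratracheal inhalation of an adenovirus carrying Cre under the ubiquitous CMV promoter (Ad5-CMV-Cre). RPC mice received the same virus and additionally lacked Casp8, which the labels write as Casp8-/- and the study's methods describe as a conditional floxed allele. The mice were young adults at inhalation, and the fresh-frozen tumors were taken at endpoint, months after inhalation. The CMV promoter is active in many cell types, so recombination was not restricted to the tumor's cell of origin. The targeted genes were not used to check the labels. The counts are per gene, with no separate values for single exons. Casp8 stood at 56.8 and 60.6 counts per 1000000 counts (CPM) in tumor-like nuclei of RP1 and RP2 and at 91.8 and 66.8 in RPC1 and RPC2. It was thus not lower in RPC, and the reason was not tested. None of Casp8, Rb1 and Trp53 passed edgeR's quasi-likelihood test of RPC against RP (adjusted p = 0.404, 0.375 and 0.664). Rb1 and Trp53 were targeted in both genotypes, so their comparison does not bear on the labels.

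Serotonin is made from tryptophan in 2 steps. Tryptophan hydroxylase, Tph1 in peripheral neuroendocrine cells and Tph2 in neurons, performs the rate-limiting step, and the decarboxylase Ddc completes it. The vesicular transporters Slc18a1 (VMAT1, typical of neuroendocrine cells) and Slc18a2 (VMAT2, typical of neurons) load the amine into secretory vesicles. The plasma membrane transporter Slc6a4 (SERT) takes it up again, and the mitochondrial monoamine oxidases Maoa and Maob degrade it. In the lung, pulmonary neuroendocrine cells store serotonin, and the endothelium is known for clearing it from blood. Ddc, both vesicular transporters and both oxidases also serve dopamine, noradrenaline and other amines.

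After removal of nuclei by the study's limits, 38254 of 38353 nuclei remained, 8363 and 8874 from RP1 and RP2 and 10853 and 10164 from RPC1 and RPC2. Values given as a run of 4 are in the order RP1, RP2, RPC1, RPC2. No nucleus barcode was shared between animals. Total counts per animal were 32256394 to 70517884, and the median per nucleus was 2223 to 3392. Nuclei were clustered without the 8 genes, and 32645 (85.3%) were tumor-like by 14 neuroendocrine markers. These markers summed to 4145 to 6099 CPM in tumor-like nuclei of the 4 animals. Tumor-like nuclei of RPC mice were deeper (median 3325 and 2812 counts against 2306 and 2248.5 in RP) and had less of the ribosomal RNA Rn18s-rs5 (2.79% and 5.10% of counts against 9.46% and 7.83%). With Rn18s-rs5 left out, with a higher minimum of counts per nucleus, or without nuclei above 4 times the median depth, the RPC over RP log2 value of Slc18a1 given below was 0.69, 0.69 and 0.68. Since the wells and the animals coincide, an effect of the well cannot be told apart from the animal, and a level summed over nuclei does not tell fewer nuclei with a transcript from less RNA per nucleus.

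In tumor-like nuclei the serotonin route was represented by Ddc, Slc18a1 and Tph1, while the neuronal forms and the reuptake transporter were nearly undetected. Per kilobase of gene span, over all 4 animals, Ddc (10.3 CPM per kb) and Slc18a1 (9.38 CPM per kb) led. Tph1 followed with 0.983, then Maoa with 0.0837, Maob with 0.0238, Slc18a2 with 0.0185, Slc6a4 with 0.0104 and Tph2 with 0.00421 CPM per kb. Ddc and Slc18a1 overlapped between animals on this scale (7.75 to 11.8 against 6.02 to 11.2), and so did the neighbors from Maob to Tph2. Tph1 (0.231 to 2.27) lay below Slc18a1 and above Maoa (0.0570 to 0.116) in all 4 animals, and Maoa lay above Maob (0.0124 to 0.0414). The remaining values are CPM without length.

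**Figure D1:**
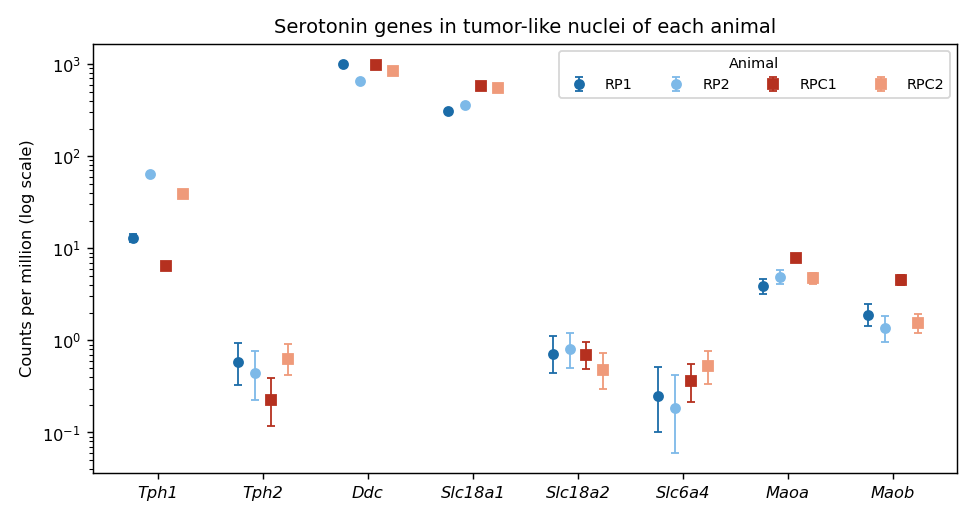
CPM (log axis) of the 8 serotonin genes in tumor-like nuclei, 1 point per animal, with exact Poisson 95% intervals that cover counting error only. Tph1 is high in RP2 and RPC2 and low in RP1 and RPC1, Slc18a1 is higher in both RPC animals, and Tph2, Slc18a2 and Slc6a4 stay below 1 CPM in all 4.

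Tph1, at chromosome 7 (46294065 to 46321965, minus strand, GRCm39), differed more between mice than between genotypes. Its level in tumor-like nuclei was 12.9 and 63.4 CPM in the RP animals and 6.43 and 38.9 CPM in the RPC animals, from 360, 1738, 341 and 1791 counts. RP2 and RPC2 were high and RP1 and RPC1 low, so the genotypes overlapped. The RP mean was 38.2 ± 35.7 CPM and the RPC mean 22.7 ± 23.0 CPM (SD, n = 2 each). The wells of the 4 animals did not overlap: 9.28 and 15.4 CPM in RP1, 60.5 and 66.9 in RP2, 6.16 to 6.65 over 3 wells of RPC1, and 38.7 and 39.2 in RPC2. The lower well of RP1 was nearer to the wells of RPC1 than to the other well of RP1. Across the 7 sublibraries the low animals ranged from 8.08 to 17.5 CPM (RP1) and 3.52 to 8.10 (RPC1) and the high animals from 52.7 to 78.0 (RP2) and 30.1 to 51.8 (RPC2), so the 2 high animals did not overlap the 2 low ones in any sublibrary.

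Tph2, the neuronal paralog (chromosome 10, 114914546 to 115020927, minus strand), was close to undetected. It gave 16, 12, 12 and 29 counts in tumor-like nuclei, equal to 0.576, 0.438, 0.226 and 0.631 CPM. For this pair of enzymes, one transcribed in the tumors and the other nearly silent, the RefSeq start regions (250 bases before to 50 after the start, GRCm38.p6) are given with any CAGCTG, an E-box, in capitals. The motif is its own reverse complement, and 16.3% of 32851 start regions of this length hold it.
Tph1 (chr7:46672488-46672787, minus strand): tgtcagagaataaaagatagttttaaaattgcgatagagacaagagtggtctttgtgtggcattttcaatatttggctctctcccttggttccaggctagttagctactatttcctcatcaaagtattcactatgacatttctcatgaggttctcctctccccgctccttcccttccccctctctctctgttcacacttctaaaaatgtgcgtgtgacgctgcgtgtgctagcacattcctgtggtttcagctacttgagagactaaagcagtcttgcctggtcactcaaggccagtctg
Tph1 (chr7:46667328-46667627, minus strand): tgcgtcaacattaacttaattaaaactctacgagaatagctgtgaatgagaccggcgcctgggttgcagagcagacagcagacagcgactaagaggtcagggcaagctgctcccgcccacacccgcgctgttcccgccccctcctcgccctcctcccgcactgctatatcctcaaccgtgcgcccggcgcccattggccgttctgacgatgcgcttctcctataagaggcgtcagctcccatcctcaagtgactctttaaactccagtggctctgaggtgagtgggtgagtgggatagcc
Tph2 (chr10:115184973-115185272, minus strand): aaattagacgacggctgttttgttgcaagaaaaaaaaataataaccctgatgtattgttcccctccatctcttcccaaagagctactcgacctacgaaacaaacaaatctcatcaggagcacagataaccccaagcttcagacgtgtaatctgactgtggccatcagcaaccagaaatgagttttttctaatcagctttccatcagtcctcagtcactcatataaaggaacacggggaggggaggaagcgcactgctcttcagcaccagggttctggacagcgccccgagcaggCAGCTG
The 2 annotated Tph1 start regions held no CAGCTG, and the Tph2 region held 1. Of 8 start regions listed for 6 of the genes, 3 held the motif, and these belonged to Tph2, Slc6a4 and Slc18a2. The counts do not separate the 2 Tph1 starts.

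Ddc (chromosome 11, 11762602 to 11848150, minus strand) had the highest level per kilobase over all animals, overlapping Slc18a1 as given above. Its level in tumor-like nuclei was 1005 and 663 CPM in the RP animals and 967 and 850 CPM in the RPC animals. RP2 stood lowest, and the genotypes overlapped. A noncoding gene on the opposite strand inside Ddc, 1700042O10Rik, had 137 to 342 counts where Ddc had 18183 to 51283. After each nucleus was thinned to 1000 transcripts, a Ddc transcript was seen in 59.8% (95% exact binomial interval 58.6 to 61.0), 45.7% (44.4 to 46.9), 58.8% (57.7 to 59.8) and 54.5% (53.5 to 55.6) of tumor-like nuclei. Without thinning the shares were 80.9%, 70.3%, 87.1% and 81.0%. Thinning left out 883, 808, 159 and 477 nuclei with fewer counts. In macrophage-like nuclei of clusters low in tumor markers, which should lack Ddc, the thinned share was 6.02% to 19.0%, at a median depth of 2143 to 3496.5 counts against 2497 to 3366 in the thinned tumor-like nuclei. The tumor-like shares were therefore above that background in every animal.

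Slc18a1 (chromosome 8, 69490135 to 69541887, minus strand) was the vesicular transporter of these tumors. RP tumor-like nuclei had 312 and 363 CPM, and RPC tumor-like nuclei had 578 and 556 CPM. Both RPC animals lay above both RP animals. The share of thinned nuclei with a Slc18a1 transcript was 25.3% (24.3 to 26.4) and 29.6% (28.5 to 30.8) in the RP animals and 42.6% (41.6 to 43.7) and 40.5% (39.5 to 41.6) in the RPC animals. Macrophage-like nuclei of the low-marker clusters had 1.02% to 12.7%. Slc18a1 overlaps the noncoding Gm15716 and Atp6v1b2 on the opposite strand, which had 84 to 254 and 2064 to 5410 counts against 8664 to 30662 for Slc18a1. The sources used here do not say whether strand was used in counting. Slc18a2 (chromosome 19, 59249238 to 59284695, plus strand), the neuronal form, had 20, 22, 37 and 22 counts, or 0.719, 0.803, 0.698 and 0.479 CPM.

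Slc6a4 (chromosome 11, 76888903 to 76923169, plus strand) gave 7, 5, 19 and 24 counts in tumor-like nuclei, equal to 0.252, 0.182, 0.358 and 0.522 CPM. Both RPC animals were above both RP animals, but 7 of the 24 counts of RPC2 came from 1 nucleus. The oxidases, neighbors on chromosome X (Maoa 16485893 to 16554057, plus strand, and Maob 16574807 to 16683686, minus strand), were low. Maoa stood at 3.88, 4.93, 7.90 and 4.74 CPM. Maob stood at 1.91, 1.35, 4.51 and 1.54 CPM. RPC1 was the highest animal for both oxidases, and the other 3 animals lay close together.

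The comparison of RPC with RP tumor-like nuclei asked whether loss of Casp8 went along with a change in these genes. By edgeR's quasi-likelihood test on counts summed per animal, 0 of the 8 genes passed an adjusted p of 0.05, as did 0% of all 20141 genes tested (3046 had an unadjusted p under 0.05). Slc18a1 came nearest. Its fitted log2 fold change was 0.69 ± 0.15 (SE), the means being 567 ± 15.8 CPM (SD, n = 2) in RPC and 337 ± 36.1 (SD, n = 2) in RP, with an adjusted p of 0.275 by edgeR (unadjusted 0.00523). DESeq2, the test of the study, called Slc18a1 (log2 fold change 0.73, adjusted p = 0.0429). It was 1 of 5 serotonin genes given an adjusted p there, against 675 of 16039 genes (4.21%). Leaving out any 1 animal kept the edgeR fold change of Slc18a1 between 0.61 and 0.79. For the thinned shares of Slc18a1 the difference was 14.1 percentage points (27.5% ± 3.03 in RP and 41.6% ± 1.48 in RPC, SD, n = 2 each), with an exact permutation p of 0.33, the smallest that 2 against 2 animals allow.

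For the other genes the fitted differences stayed within 2 standard errors. Ddc had a log2 fold change of 0.06 ± 0.25 (SE) and Tph1 of -0.79 ± 1.04. Tph2 and Slc18a2 had -0.31 ± 0.61 and -0.43 ± 0.39, Slc6a4 had 0.94 ± 0.48, Maoa 0.46 ± 0.35 and Maob 0.82 ± 0.59, with adjusted p between 0.405 and 0.930 by edgeR. Maob rested on RPC1: without that animal its value was -0.12. Tph1 also turned with single animals, to 0.74 without RP2. The thinned share of Ddc differed by 3.93 percentage points (exact permutation p = 1) and that of Tph1 by -1.05 (exact permutation p = 0.67), RPC minus RP.

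**Figure D2:**
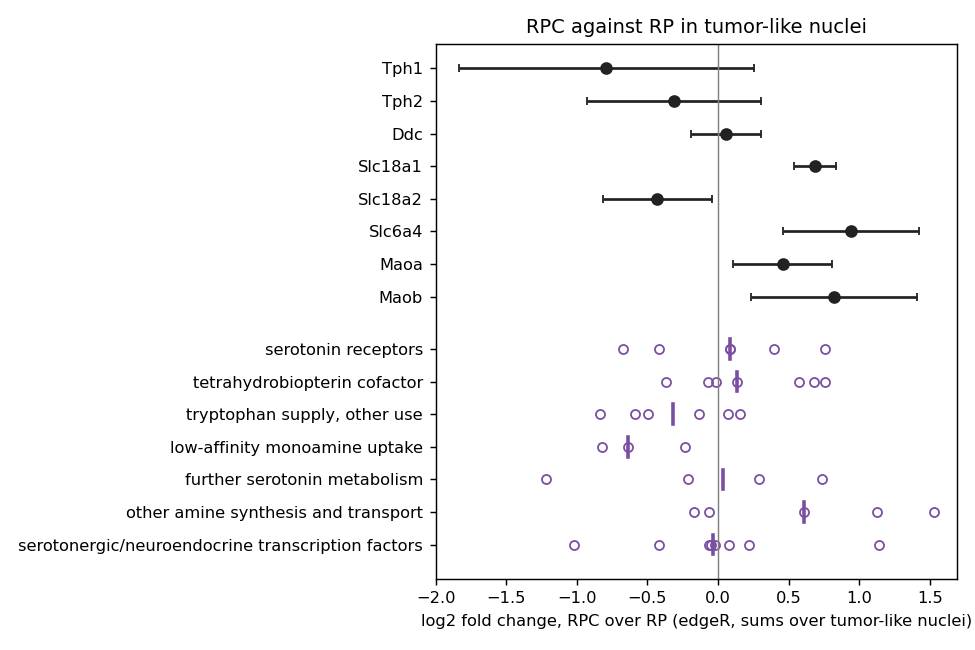
Fitted log2 fold changes of RPC over RP in tumor-like nuclei (edgeR). Filled points with bars are the 8 serotonin genes with their standard error, open circles are the tested genes of the 7 related lists, and vertical ticks are list medians. Slc18a1 has the narrowest bar, at 0.69, and no gene shown passed the adjusted p.

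The genes around the pathway were read from 7 lists holding 55 genes, of which 39 were tested in tumor-like nuclei and 0 passed edgeR's adjusted p. Over all genes tested the median log2 fold change was -0.01. Of 14 serotonin receptors, 6 were tested (median 0.08), from Htr6 at 0.76 to Htr4 at -0.67, and no receptor exceeded 3.23 CPM in any animal. Of 8 genes for tetrahydrobiopterin, the cofactor of tryptophan hydroxylase, 7 were tested (median 0.14), from Spr at 0.76 to Pcbd2 at -0.37. Gch1, which makes its first intermediate, was at 40.5 to 61.8 CPM. The 6 tested genes of tryptophan supply and other tryptophan use had a median of -0.32, from Wars1 at 0.16 to Slc7a5 at -0.84. Slc7a5 and Slc3a2 form the LAT1 amino acid transporter. Slc7a5 stood at 18.4 and 11.9 CPM in RP and 7.53 and 10.2 in RPC. Slc3a2 stood at 26.7 and 18.8 in RP and 13.6 and 18.0 in RPC. Both were thus lower in both RPC animals, but neither passed (adjusted p = 0.33 and 0.378 by edgeR). How many of all genes separate the animals in this way was not counted.

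The 3 tested low-affinity uptake transporters had a median of -0.64, and Slc22a3 was the lowest at -0.82. Among 4 tested genes of further serotonin metabolism (median 0.04) the values ran from Aldh2 at 0.74 to Asmt at -1.22. Among 5 tested genes of other amines (median 0.61) the highest was Hnmt, which methylates histamine, at 1.53. Hnmt stood at 1.69 and 3.21 CPM in RP and at 7.26 and 7.46 in RPC (adjusted p = 0.275 by edgeR). Th, the entry enzyme of dopamine synthesis, was at 21.6, 4.30, 29.9 and 11.9 CPM, and thus lower in the 2 animals that were high in Tph1.

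Of 9 transcription factors of serotonergic and neuroendocrine cells, 8 were tested (median -0.03). Lmx1b, a regulator of serotonergic neurons, stood at 241 and 312 CPM in RP1 and RP2 and at 144 and 141 in RPC1 and RPC2, a log2 fold change of -1.02 ± 0.17 (SE) that did not pass (adjusted p = 0.270 by edgeR), and Lmx1a had the largest positive value, 1.14. Fev, the other defining factor of serotonergic neurons, was at 0.146 to 1.33 CPM.

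Within each tumor Tph1 was unevenly distributed over nuclei. In RP2, 719 of 7346 tumor-like nuclei held a Tph1 transcript, where 1348 would if its counts followed each nucleus's depth alone. The 168 nuclei with 3 or more transcripts held 61.6% of all Tph1 counts, and the highest nucleus held 43. In RPC2, 709 of 8773 nuclei held a transcript against 1370 by depth alone, 166 nuclei with 3 or more held 63.8% of the counts, and the highest held 74. RP1 and RPC1 had 223 and 222 nuclei with a transcript against 336 and 324, and a maximum of 15 and 11. Ddc was close to the depth-based number (5885 nuclei observed and 6188 by depth in RP1, 8059 and 8549 in RPC1), and so was Slc18a1 (3529 and 3950, 7195 and 7651). After thinning, Tph1 was seen in 1.001% (0.772 to 1.28), 4.01% (3.55 to 4.51), 0.440% (0.315 to 0.599) and 2.46% (2.14 to 2.81) of tumor-like nuclei. In the low-marker macrophage-like nuclei 1 of 79 and 2 of 144 nuclei of RP1 and RP2 had one, and 0 of 98 and 0 of 83 of RPC1 and RPC2, which allows up to 3.06% and 3.61%. At this depth the share of nuclei with Tph1 could not be placed above this background in any of the 4 animals. That limit concerns the thinned share, with 79 to 144 background nuclei per animal. Without thinning, these macrophage-like nuclei had at most 7.78 CPM of Tph1 in any animal, from 4 counts in all. Tumor-like nuclei had 6.43 CPM (RPC1) to 63.4 CPM (RP2).

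Clusters of tumor-like nuclei, formed without the 8 genes, differed widely in Tph1 within 1 animal. In RPC2 the level was 122 CPM in cluster 1, 55.1 in cluster 2, 36.5 in cluster 4 and 7.31 in cluster 5. In RP2 it was 94.7 in cluster 1, 70.1 in cluster 2 and 35.4 in cluster 3. In RP1, clusters 1 and 3 had 30.1 and 34.8 CPM and the others 7.52 to 11.2. In RPC1 the level was 18.4 in cluster 2 and 0 to 8.55 in the others. Clusters 1 and 3 consisted mostly of RP2 nuclei (4493 of 6191 and 2465 of 2884), and cluster 2 of RPC2 nuclei (3324 of 3653). The 122 CPM of RPC2 came from 72 counts in 295 nuclei of cluster 1. In cluster 2, RP2 had 29 counts in 141 nuclei and RPC1 had 10 counts in 179 nuclei. Whether nuclei of the other animals in these 3 clusters carried RNA of the main animal was not tested, for Tph1 or for Ddc and Slc18a1. Cluster 1 was led by Luzp2 and Thbs1, and cluster 2 by Gria1 and Clec14a. Ddc varied less, between 610 CPM (cluster 2 of RPC1) and 1187 CPM (cluster 5 of RPC2) over clusters of at least 100 nuclei. Over the same clusters Slc18a1 lay between 145 and 625 CPM. The 145 CPM came from 16 counts in 123 nuclei of cluster 1005 of RP1, and the next lowest value was 218 CPM (cluster 7 of RP1).

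**Figure D3:**
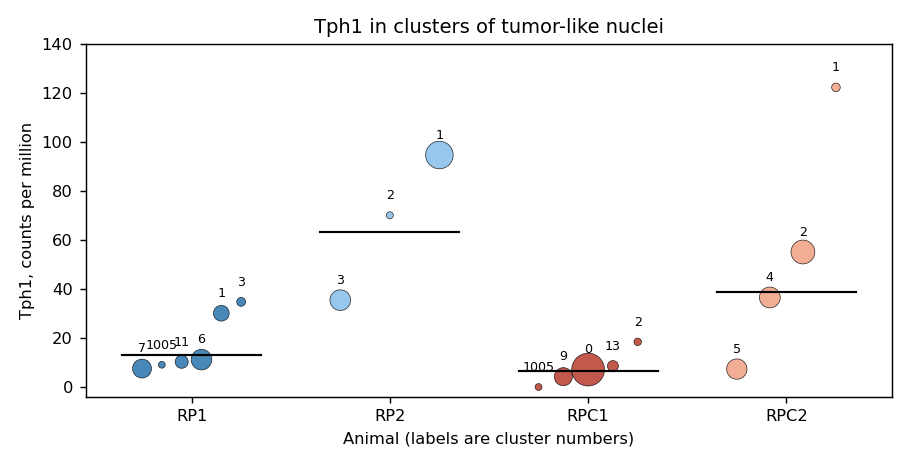
Tph1 CPM in clusters of tumor-like nuclei with at least 100 nuclei of the animal. Circle area grows with the number of nuclei, numbers name clusters, and black lines mark the animal's level over all tumor-like nuclei. In RPC2 the clusters run from 7.31 to 122 CPM, the highest from 295 nuclei in a cluster mostly of RP2 nuclei. All clusters of RPC1 lie below 20 CPM.

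Nuclei in which Tph1 was seen did not show Ddc more often. Among thinned tumor-like nuclei, a Ddc transcript was seen in 48.4% of those with Tph1 and 59.9% of those without in RP1. The same pairs were 40.1% and 45.9% (RP2), 52.5% and 58.8% (RPC1), and 47.5% and 54.7% (RPC2). The share was lower beside Tph1 in 4 of 4 animals. For Slc18a1 the shares were 35.9% and 25.2%, 30.2% and 29.6%, 40.0% and 42.7%, and 48.0% and 40.4%, higher beside Tph1 in 3 of 4. The nuclei with Tph1 numbered 64, 262, 40 and 204, and Ddc was seen in 31, 105, 21 and 97 of them. As given above, the share of such nuclei could not be placed above the macrophage-like background in any animal. The differences between nuclei with and without Tph1 were not tested. Ddc and Slc18a1 themselves had a Pearson r between -0.02 and 0.03 across thinned tumor-like nuclei of the 4 animals. Of 8336 genes seen in at least 1% of nuclei of every animal, those most like Ddc were Tenm2 (mean r over animals 0.10), Adgrb3, Atp8a2, Tmem117 and Celf2. Among the 5 most like Slc18a1 were Cntnap5b (mean r 0.05), Agbl4, Car8 and Limch1. All these correlations were weak. They are over nuclei that share a library and base composition, and Tph1 was too rare in RPC1 to be included.

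The non-tumor classes were used to ask where in the tumor tissue each gene was counted. These classes were named from marker genes other than the 8, and all 3 comparisons share the tumor-like nuclei. The tumor markers counted in them are given first. Endothelial-like (508 nuclei), macrophage-like (821) and fibroblast-like (451) nuclei held the neuroendocrine markers at a median of 77.2%, 61.9% and 71.3% of their tumor-like level, from a lowest of 52.8% to a highest of 95.4% over the 14 markers. Parts of them, 251 endothelial-like and 467 macrophage-like nuclei, fell into clusters with a median of 17.9% and 17.6% of that level (9.38% to 125% and 6.25% to 58.6% over the markers). Fibroblast-like nuclei had no such cluster. In the whole classes Ddc stood at 70.3%, 65.8% and 68.4% of its tumor-like level, and Slc18a1 at 69.0%, 56.2% and 67.0%, near the shares of the markers themselves. In the low-marker clusters Ddc stood at 12.8% (endothelial-like) and 15.2% (macrophage-like), and Slc18a1 at 8.60% and 13.7%. The other endothelial-like and macrophage-like nuclei were deeper, with a median of 6715 and 8639.5 counts against 1410 and 2198 in the low-marker clusters. They held 3059193 of 3490282 and 4696567 of 6008334 counts of their classes, so the whole-class values describe mostly these nuclei. The part of tumor RNA in the class values was not tested further.

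Between classes, with the animal as a block, 3 of 6 tested serotonin genes passed in tumor-like against endothelial-like nuclei (17.0% of all 17015 genes did), 5 of 7 against macrophage-like nuclei (33.7% of 17266 genes) and 4 of 6 against fibroblast-like nuclei (22.8% of 17307 genes). The 5 include Slc6a4, which passed the filter on low counts through its macrophage-like level, so its call adds no support to that count. Ddc was higher in tumor-like nuclei in all 3, by a log2 fold change of 0.55 ± 0.10 (SE), 0.58 ± 0.06 and 0.53 ± 0.08 (adjusted p = 0.000188, 2.3e-06 and 5.75e-05 by edgeR). Slc18a1 was higher by 0.60 ± 0.09, 0.78 ± 0.06 and 0.65 ± 0.10 (adjusted p = 4.33e-05, 3.09e-07 and 1e-04 by edgeR). Against the low-marker clusters alone, an alternative chosen after seeing the data, the differences grew to 3.08 for Ddc and 3.66 for Slc18a1 (endothelial-like) and to 2.80 and 2.80 (macrophage-like). Tph1 was higher than in macrophage-like nuclei by 1.27 ± 0.23 (adjusted p = 0.000578 by edgeR) and than in fibroblast-like nuclei by 0.62 ± 0.18 (0.0179), the latter lost without RPC2 (0.146) and by DESeq2 (0.0679). Against endothelial-like nuclei it did not pass (0.54 ± 0.23, adjusted p = 0.120 by edgeR), although 0 Tph1 counts were found in the low-marker endothelial-like clusters, where 3 counts would be 6.96 CPM. Against those clusters alone no fold is given for Tph1, and its call (adjusted p = 1.89e-05 by edgeR) is no support. With 0 counts there, Tph1 entered that test only through its tumor-like level. Against the low-marker macrophage-like clusters its log2 fold change was 3.42 (adjusted p = 4.58e-06 by edgeR). With only 4 Tph1 counts there, Tph1 passed the filter on low counts through its tumor-like level, so this call is no support either. The low-marker clusters were chosen for few tumor markers, so they are no independent test of where Ddc, Slc18a1 and Tph1 are counted.

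Slc6a4 was the gene with the clearest non-tumor site, the macrophage-like nuclei. It had 2, 7, 15 and 9 counts there, or 1.95, 3.79, 8.22 and 6.87 CPM, above the tumor-like level in every animal. The tumor-like level was lower by 3.96 ± 0.46 on the log2 scale (adjusted p = 1.23e-05 by edgeR), and the value stayed between -4.12 and -3.71 when any 1 animal was left out. The tumor-like level was at most 0.522 CPM, so the gene passed the filter on low counts through its macrophage-like level. The p-value is therefore no separate support for this site. Slc6a4 was not tested against endothelial-like or fibroblast-like nuclei. In the low-marker macrophage-like clusters its pooled level was 16.0 CPM (95% Poisson interval 9.91 to 24.5, from 21 counts), made of 0, 5, 11 and 5 counts per animal, while Ddc and Slc18a1 were lower there than in the whole class, as given above. The whole endothelial-like class, the site known for serotonin clearance, had 2 Slc6a4 counts, both in RPC1, and the fibroblast-like class had 0, where 3 counts would be 0.702 CPM. At this depth a low level in endothelium was not detectable.

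Maoa was higher in both endothelial-like and macrophage-like nuclei than in tumor-like nuclei. It stood at 13.1, 19.6, 20.7 and 11.1 CPM in endothelial-like nuclei and at 10.7, 14.1, 21.9 and 10.7 in macrophage-like nuclei. Every value lay above that of the tumor-like nuclei of the same animal. The tumor-like level was lower by 1.51 ± 0.29 and 1.38 ± 0.21 on the log2 scale (adjusted p = 0.000409 and 0.000128 by edgeR). In the low-marker macrophage-like clusters it had 0, 11, 26 and 3 counts, or 0, 28.5, 60.7 and 12.3 CPM, so that RP1 had none. The counts of RPC1 lay in few nuclei: after thinning, 9 Maoa counts came from 4 of 98 nuclei. With the low-marker clusters alone the macrophage difference was -2.04 (adjusted p = 0.0008 by edgeR) and the endothelial difference, from 7 Maoa counts, was -1.37 and did not pass (0.238). Fibroblast-like nuclei did not differ in Maoa beyond the error (-0.15 ± 0.37).

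Maob had its highest levels in epithelial classes. It also stood higher in fibroblast-like than in tumor-like nuclei (3.84, 7.13, 9.57 and 8.83 CPM), the tumor-like level being lower by 1.77 ± 0.41 on the log2 scale (adjusted p = 0.00461 by edgeR, 0.0515 without RPC2). Its highest levels, which were not tested, were in the low-marker clusters of alveolar type 2-like nuclei (68.4, 70.9, 71.8 and 58.8 CPM, from 3, 12, 8 and 7 counts) and of club-like nuclei (22.9, 24.8, 57.4 and 70.1 CPM, from 1, 6, 45 and 13 counts). All these values lay above the highest tumor-like value of 4.51 CPM. Macrophage-like nuclei, high in Maoa, had 2.50 CPM of Maob over all animals, and the low-marker clusters had 1 count.

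**Figure D4:**
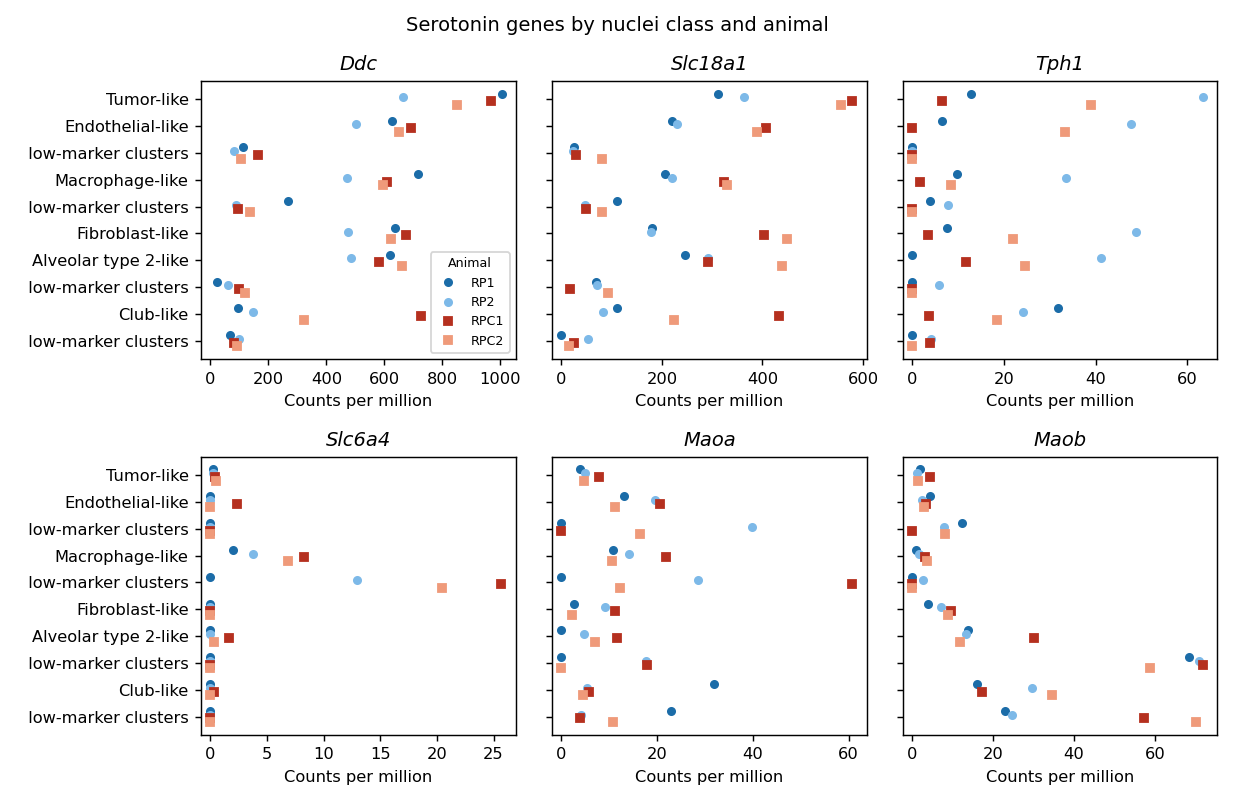
CPM of 6 serotonin genes by nuclei class, 1 point per animal (circles RP, squares RPC). Each row named low-marker clusters is the part of the class above it that lies in clusters with neuroendocrine markers under 50% of the tumor-like median. Ddc, Slc18a1 and Tph1 drop in those rows, Slc6a4 and Maoa have their highest single values among the classes plotted in macrophage-like low-marker clusters, where RP1 is at 0 for both, and Maob in alveolar type 2-like and club-like low-marker clusters.

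RPC against RP was also compared in endothelial-like and macrophage-like nuclei, which are not the 2 largest of the other classes. In endothelial-like nuclei 4 of the genes were tested and 0 passed (8 of 9634 genes, 0.0830%, did), and in macrophage-like nuclei 5 were tested and 0 passed (1 of 11677, 0.00856%). Slc18a1 showed a log2 fold change of 0.74 ± 0.20 and 0.51 ± 0.17 there (adjusted p = 0.248 and 0.335 by edgeR), next to 0.69 in the tumor-like nuclei whose markers these classes carry. Maoa was at -0.21 ± 0.49 and 0.28 ± 0.44, and Slc6a4 in macrophage-like nuclei at 1.18 ± 0.56 (adjusted p = 0.433 by edgeR). In the low-marker macrophage-like clusters the Slc18a1 value was -0.37. Tph1 was at -2.38 ± 0.80 in macrophage-like nuclei (adjusted p = 0.335 by edgeR) and at -0.75 ± 1.07 in endothelial-like nuclei.

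No cluster was named for mast cells or platelets, which in mice also make or carry serotonin. The 8 mast cell or basophil markers summed to 0.667 to 1.40 CPM over all kept nuclei of an animal (26 to 79 counts, with 2 to 4 markers at 0), and the 8 megakaryocyte or platelet markers to 7.20 to 12.8 CPM. In tumor-like nuclei the mast cell list summed to 0.396 to 0.620 CPM. Over all kept nuclei it was highest in RPC2 and RP2, the 2 animals with the most Tph1, and its part in the Tph1 values was not tested.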

How the data were processed

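Nuclei of tumors from 2 RP and 2 RPC mice were profiled by combinatorial barcoding (Parse Evercode) in 7 sublibraries, each holding all 4 animals. The deposited values were raw transcript counts per gene and nucleus, which the authors made with the Parse pipeline on GRCm39 and split into 1 matrix per animal. The matrix sums equalled the deposited transcript numbers of all 38353 nuclei. Of 12 columns in the nuclei tables, 8 were not used. Samples were grouped by the genotype in the labels, and the mice were the replicates.

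The limits of the study were applied to the nuclei (at least 300 counts, at most 10% of them mitochondrial, at most 12000 genes). No doublet caller was used. The 8 genes, mitochondrial genes and Rn18s-rs5 were left out of clustering (2000 variable genes, 20 principal components, 20 neighbors, Leiden resolution 0.4), and clusters were named from marker lists. Levels are CPM over all counts of the class in an animal. Exact intervals (95%) and the limit from 3 counts cover counting error only.

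Counts were summed per animal and class and tested with edgeR 4.0.16 (TMM, filter on low counts, quasi-likelihood, Benjamini-Hochberg) over all genes, with the animal as a block between classes. Shares were compared by two-sided exact permutation tests. Alternatives were DESeq2 1.42.0, other size factors, no filter, a replicate block, each animal left out, another resolution, depth limits, and, chosen after seeing the data, low-marker clusters alone and no Rn18s-rs5. The edgeR script was tested on simulated counts for RPC against RP in tumor-like nuclei (20141 genes). It recovered 70% of 50 genes raised 4-fold and 6% of 50 raised 2-fold. Of 50 genes lowered to each degree it recovered 58% and 2%, and it called 0 of 19941 unchanged genes. All were drawn with a common dispersion of 0.0808, and genes with a larger dispersion were not simulated. The genes named were the 8, the targeted genes, every called gene and both tested extremes of each related list, and the 5 genes most like a member seen in at least 1% of nuclei of every animal. Some genes that this rule names are not reported here. Gch1, Slc3a2, Th, Fev and the leading genes of 2 clusters were added after their values were seen. The 8 genes and all lists were chosen with earlier results of these data known. Same-numbered RP and RPC mice are different animals. R 4.3.3, Python 3.11.15 and leidenalg 0.10.2 were used.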

Additional observations from a re-analysis of the deposited data

How the results depend on the processing

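Limits: 2 animals per genotype, neuroendocrine markers counted in the other classes, and low counts of Tph2, Slc18a2 and Slc6a4. Main counts of genes called were 0, 8 and 1 for RPC against RP in tumor-like, endothelial-like and macrophage-like nuclei. DESeq2 called 675, 37 and 40. Without a filter on low counts, 364 and 528 genes were called in endothelial-like and macrophage-like nuclei. Low-marker clusters alone gave 16 calls in endothelial-like nuclei, and leaving out 1 animal gave 28 to 380 and 9 to 251 in the 2 classes and 0 in tumor-like nuclei. The replicate block gave 174 calls in endothelial-like, 1 in macrophage-like and 0 in tumor-like nuclei. The numbers are shared only as names (correlation of deviations of same-numbered animals -0.04 over 20141 genes). Counts of calls between classes stayed within 1.5 times under every alternative run. The causes were not tested.

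With 1 animal left out, the RPC over RP log2 values in tumor-like nuclei crossed 0 for Tph1 (-2.62 to 0.74), Tph2 (-1.21 to 0.27), Ddc (-0.22 to 0.42) and Maob (-0.12 to 1.41). They also crossed 0 for Tph1 (-7.47 to 1.38) and Maoa (-0.63 to 0.19) in endothelial-like nuclei, and for Ddc (-0.35 to 0.24) and Maoa (-0.30 to 0.64) in macrophage-like nuclei. Shares of nuclei did so for Ddc (-3.13 to 10.99 points) and Tph1 (-2.56 to 0.45 points). Tumor-like over macrophage-like values crossed 0 for Slc18a2 (-0.57 to 0.80) and Maob (-0.45 to 0.38, with 0.10 without a filter and 1.77 against low-marker clusters), and tumor-like over fibroblast-like values for Maoa (-0.45 to 0.15). Slc18a1 in low-marker macrophage-like clusters was at -0.37. Without RPC2, Tph1 passed in endothelial-like nuclei, where RPC1 had 0 counts (adjusted p = 1.8e-05 by edgeR), and in macrophage-like nuclei (log2 -3.88, adjusted p = 0.0249 by edgeR). Without a filter it also passed in macrophage-like nuclei (adjusted p = 0.00018 by edgeR) and in tumor-like against endothelial-like nuclei (log2 0.57, adjusted p = 0.044 by edgeR).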

Other observations

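Among thinned tumor-like nuclei, 5297 genes with at least 20 summed counts were compared between nuclei with and without a Tph1 transcript, and the genes given here were chosen after their values were seen, with no test. The share of nuclei with Tph1 could not be placed above the macrophage-like background, as given above. Thbs1, which encodes the matrix protein thrombospondin-1, was higher beside Tph1 by a log2 ratio of 1.98 and 1.71 in the RP animals and 2.04 and 2.90 in the RPC animals. Enpp1, an ectonucleotide pyrophosphatase, was higher by 2.20, 1.30, 1.75 and 1.57, and Sugct by 1.91, 1.80, 3.05 and 1.86. Cit, needed for cytokinesis, was lower, at -0.90, -0.88, -2.30 and -1.13, and the spindle gene Nusap1 at -1.85, -0.67, -0.95 and -1.45. The nuclei with Tph1 held 140 counts of Thbs1 (98 of them in RP2), 38 of Enpp1, 21 of Sugct, 54 of Cit and 35 of Nusap1. In that order RPC1 had only 2, 5, 3, 1 and 2 counts and RP1 only 10, 3, 1, 9 and 2. A pseudocount of 0.5 was added to the counts of both groups of nuclei. It raises the ratio of a gene with few counts in the smaller group, the nuclei with Tph1. Thbs1 also led the tumor-like cluster 1, where Tph1 was high.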
